A study of Homo sapiens with 6 samples.

Results

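EGFR, ERBB2 and ERBB3, 6 of the genes for the ligands of this receptor family (HBEGF, TGFA, AREG, EREG, BTC and NRG1) and ERRFI1 were followed in PC-3 cells, an established line of human prostate adenocarcinoma taken from a bone metastasis. These 10 genes were picked by name among the 22933 gene symbols of the authors' deposited table. Where the table listed a symbol more than once, the row with the most RefSeq names was used and, among equals, the one with the highest FPKM. RNA-Seq had been performed on 6 samples. All carried the pRetroX-Tet-On-Advanced retrovirus, which supplies the rtTA2 transactivator, and all were grown in 300 ng/ml doxycycline (Dox) for 4 h. The 3 tdTom samples carried a second retrovirus with tdTomato alone, and the 3 TTP-tdTom samples carried the same virus with the cDNA of tristetraprolin (TTP, gene ZFP36) behind the Dox-dependent Tight promoter. The cells had been selected with G418 after the first virus and sorted for tdTomato after the second, so the groups differ by the transgene and by the infection that each sorted population came from. The labels do not say whether the 3 samples of a group were separate cultures. The deposited table gave 1 FPKM value per group and locus (fragments scaled to transcript length and library size), and the comparison asked which mRNAs were altered when TTP was induced.

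The receptors of the EGF family are membrane tyrosine kinases that pair up when a ligand binds and then signal through cascades of cytoplasmic kinases. The ligands are made as membrane-anchored precursors that metalloproteases of the ADAM family release, and prostate cancer cells can stimulate themselves this way. ERRFI1, also known as MIG6, is a cytoplasmic protein that is made in response to receptor signaling and then binds and blocks the kinase domain. TTP binds AU-rich elements in the 3′UTR of mRNAs and delivers them for decay.

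ERRFI1 and HBEGF were the members with the lowest log2 fold changes, an order that no scaling of the groups alters, and EGFR and ERBB2 were near the middle of all genes. ERRFI1 had an FPKM of 57.7 in tdTom cells and 23.2 in TTP-tdTom cells. For HBEGF the FPKM was 6.53 in tdTom cells and 2.82 in TTP-tdTom cells. EGFR stood at 21.4 and 17.8. A gene was counted as lower or higher when its absolute log2 fold change was 1 or more, its FPKM reached 1 in either group and neither value was 0. Of the 10 members, 8 reached this level, 7 of them in a row of their own and ERBB3 only in a row shared with PA2G4. Among the 8, ERRFI1, HBEGF and BTC were lower with TTP and 0 were higher, directions that hold on the deposited scale and turn if the groups are set to the same FPKM sum over all loci, which adds 3.09 to each log2 fold change. BTC reached the level only through tdTom cells, where it is higher, so its place in this count comes in part from the filter. Across the 13004 gene symbols past the same level filter, called expressed symbols here, 8.65% were lower by this much and 2.45% higher, and the median log2 fold change was -0.23. The authors' own tests were not used, and a single FPKM value per group shows no spread between replicates. No difference was therefore tested here, and each is a description of these libraries.

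**Figure D1:**
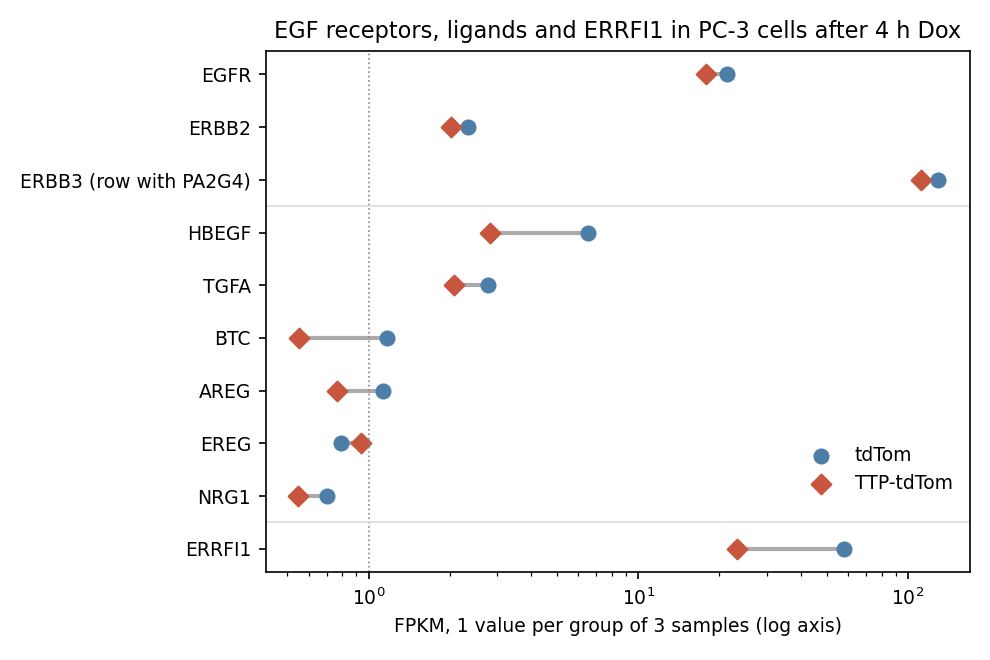
FPKM of the receptors (top), ligands (middle) and ERRFI1 (bottom) in tdTom cells (circles) and the TTP-tdTom group (diamonds) on a log axis, 1 value per group with no error bar. The long bars are those of ERRFI1 (57.7 and 23.2), HBEGF (6.53 and 2.82) and BTC (1.17 and 0.552), and the dotted line marks an FPKM of 1.

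In the series as a whole, ZFP36 itself had an FPKM of 5.56 in tdTom cells and 5.54 in the group labelled TTP-tdTom, so the values do not show the transgene at this locus, and every direction given here rests on the labels of the groups. The epithelial markers KRT18 (98.2 and 91.5) and KRT19 (60.2 and 67.1) were abundant and EPCAM was detected (15.1 and 16.8), while CDH1, which encodes E-cadherin, was low at 0.119 and 0.390. The immune and endothelial markers PTPRC, CD3E, PECAM1 and VWF, which should be silent in this line, had FPKM values between 0.0872 and 0.793. The table holds no counts, and at 400-base loci without a symbol no value of tdTom cells occurred more than once among 452, so the fragments behind a value and the depth reached could not be read from it. As the samples are bulk RNA, fewer cells that express a gene and less of its RNA per cell cannot be told apart.

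The 3′UTRs of the members are shown first, since TTP acts there. The GENCODE release 29 transcript that carries the member's RefSeq name was searched on its sense strand for the heptamer TATTTAT, the core of an AU-rich element. The windows below come from the members with the lowest log2 fold changes, ERRFI1 and HBEGF, and from other ligands that hold the motif. They run 5′ to 3′, the capitals mark the heptamer, and the positions are of GRCh38, the build of GENCODE, on the strand of the gene.
ERRFI1, first copy, chr1:8012008-8012036, minus strand: atccttccatgTATTTATcttgaagagat
ERRFI1, second copy, chr1:8011719-8011746, minus strand: gttataatactTATTTATgataccatta
HBEGF, first copy, chr5:140333678-140333706, minus strand: cttaaattataTATTTATtttattctatg
HBEGF, second copy, chr5:140332869-140332897, minus strand: aacctggttcaTATTTATactttgcaatc
TGFA, first copy, chr2:70450233-70450261, minus strand: agatgatgtctTATTTATtagatggataa
TGFA, second copy, chr2:70449666-70449694, minus strand: tttaactttgcTATTTATtttcgagcact
AREG, single copy, chr4:74454958-74454986, plus strand: taatggaagtgTATTTATtttacagctca
EREG, last of 4 copies, chr4:74388669-74388697, plus strand: ttattaattttTATTTATttttcttggga

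ERRFI1 and HBEGF each held 2 copies, in 3′UTRs of 1491 and 1456 bases. Among expressed genes with a 3′UTR within 20% of these lengths, 9.32% and 8.87% held 2 copies or more. The second copy of ERRFI1 began at base 1475 and that of HBEGF at base 1413, so that both lay close to the end of the transcript. In ERRFI1 the result depended on the transcript. Its longest annotated 3′UTR, of 1843 bases, held 0 copies and belongs to a transcript that was not the one with the RefSeq name. The shares of other genes, both those of like length and those over all genes given further below, were counted in longest 3′UTRs. By that rule ERRFI1 counts with 0 copies. The choice by RefSeq name was made after the data were seen.

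EREG held 4 copies in 3943 bases, 1 of them inside the longer motif TTATTTATT, and had FPKM values below the level filter, 0.788 and 0.936. As many copies or more stood in 6.65% of 3′UTRs of like length. TGFA held 2 copies in 3579 bases, 1 of them inside TTATTTATT, with a log2 fold change of -0.42, and 29.9% of 3′UTRs of like length held as many or more. AREG held 1 copy in only 269 bases, where 8.46% of 3′UTRs of like length held any. BTC held 0 in 1918 bases. EGFR held 0 in 6011 bases, a length at which 74.6% of 3′UTRs held at least 1. ERBB2 (618 bases) and ERBB3 (1450 bases) held 0 as well, and NRG1 held 1 in 3557 bases. An absent match says only that these letters are missing from the annotated window.

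Over all 11051 expressed gene symbols with an annotated 3′UTR, 36.3% held the heptamer at least once in their longest 3′UTR and 9.51% held TTATTTATT. The share lower by a log2 fold change of at least 1 was 4.73% with 0 copies, 11.3% with 1, 18.9% with 2 and 24.6% with 3 or more. 3′UTR length differed with the copies, from a median of 922 bases to one of 4479, and its part in this order was not tested.

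**Figure D2:**
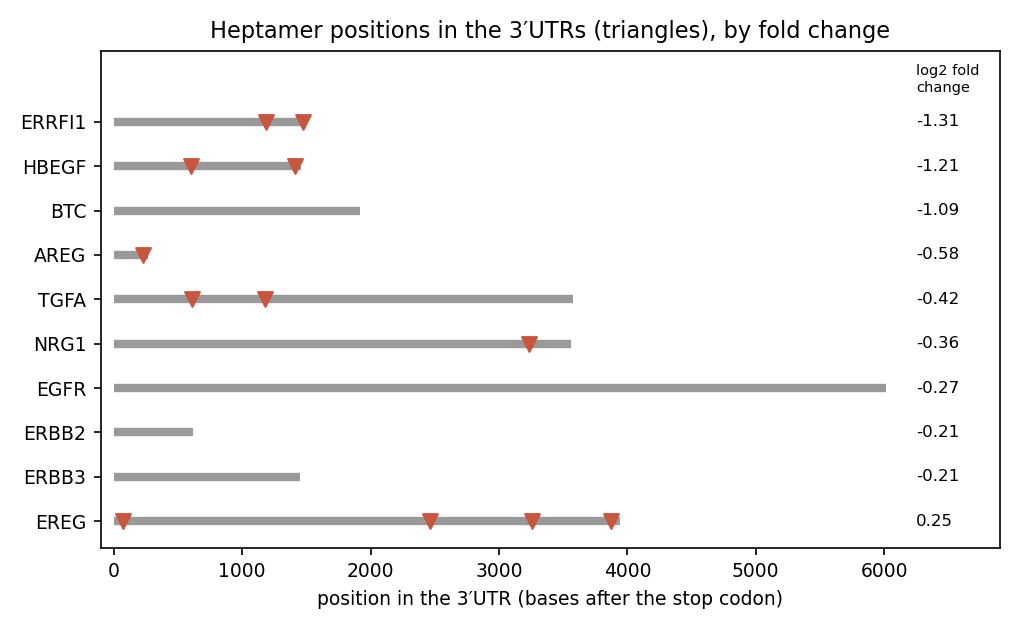
Heptamer copies (triangles) along the RefSeq-named 3′UTR of each member (bars, in bases after the stop codon), ordered by log2 fold change, which stands at the right. ERRFI1 and HBEGF at the top hold 2 copies each, BTC and the receptors hold 0, and EREG at the bottom holds 4.

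EGFR, which binds 5 of the 6 ligands measured here, was the receptor with the clearest single-gene value. Its locus lies on chromosome 7 of GRCh37 from 55086700 to 55279737. The log2 fold change was -0.27, so 83.1% of the tdTom FPKM was left, and 46.2% of expressed symbols had a lower log2 fold change. ERBB2, the partner receptor with no known ligand of its own, lies on chromosome 17 from 37844393 to 37885006. It had an FPKM of 2.34 in tdTom cells and 2.01 in TTP-tdTom cells, a log2 fold change of -0.21. Both receptors therefore moved with the bulk of the genes, and centred on the median of expressed symbols EGFR stood at -0.033 and ERBB2 at 0.020. Their neighbors were close to that median as well, with log2 fold changes of -0.25 for SEC61G and -0.12 for LANCL2 beside EGFR, and of -0.25 for PGAP3 and -0.19 for MIEN1 beside ERBB2. The FPKM of ERBB2 was 0.109 times that of EGFR in tdTom cells and 0.113 times in TTP-tdTom cells.

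ERBB3, the receptor with a weak kinase that binds neuregulins, could not be read on its own. Its row covers chromosome 12 from 56473809 to 56507864 and joins ERBB3 with its neighbor PA2G4, which encodes a growth-regulating protein that binds ERBB3. The joint FPKM was 129 in tdTom cells and 112 in TTP-tdTom cells, a log2 fold change of -0.21. A further row at the same coordinates names ERBB3 alone, with FPKM values of 0.450 and 0.691 that lie in the range of the immune and endothelial markers. The neighbor before it, the ribosomal gene RPS26, had a log2 fold change of -0.31, and the row after it, which joins ESYT1, RPL41 and ZC3H10, one of -0.028. How much of the joint value belongs to ERBB3 was not analysed here. The direction also turned with the row, to 0.62 for the row of ERBB3 alone, and centring put the joint row at 0.027.

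Of the 6 ligands, 4 passed the level filter, and HBEGF and TGFA did so in both groups. HBEGF, a heparin-binding ligand of EGFR and ERBB4, lies on chromosome 5 from 139712428 to 139726188. Its log2 fold change of -1.21 left 43.2% of the tdTom FPKM, and 4.61% of expressed symbols had a lower one. Among the 2808 symbols with a mean FPKM from 2 to 5, as HBEGF has, 6.3% were lower by at least 1 and 0.962% higher. Its nearest named neighbors were PFDN1, with a log2 fold change of -0.12, and SLC4A9, which was below the level filter at 0.144 and 0.288.

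TGFA encodes the ligand TGF-α and lies on chromosome 2 from 70674141 to 70781147. Its FPKM was 2.78 in tdTom cells and 2.07 in TTP-tdTom cells, with 74.6% left, and 32.3% of expressed symbols had a lower log2 fold change. FAM136A, on one side of TGFA, had a log2 fold change of -0.27, and ADD2, on the other, was below the level filter. HBEGF was 2.35 times as abundant as TGFA in tdTom cells and 1.36 times in TTP-tdTom cells. These ratios are taken inside a group and do not depend on how the groups are scaled to each other.

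AREG, EREG and BTC, which encode amphiregulin, epiregulin and betacellulin, are neighbors on chromosome 4 and were low in both groups. AREG had an FPKM of 1.14 in tdTom cells and 0.761 in TTP-tdTom cells. EREG had 0.788 and 0.936, and BTC had 1.17 and 0.552. In the TTP-tdTom group the AREG and BTC values lie within the range of the silent markers given above, and so does the EREG value of the tdTom group. BTC and AREG passed the level filter only through the tdTom group, where they were higher.

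For BTC, on chromosome 4 from 75670625 to 75719882, the log2 fold change was -1.09. Among the 2213 symbols with a mean FPKM from 0.5 to 1, where AREG, EREG, BTC and NRG1 all lie, 6.33% were lower by at least 1 and 13.3% were higher. These include symbols below the level filter, and of the 493 past it, as BTC and AREG are, 17.4% were lower and 33.7% higher. The middle 90% of log2 fold changes ran from -1.13 to 1.89 over the 2213 and from -2.35 to 3.39 over the 493, so the BTC value lay inside both ranges. At a mean FPKM from 2 to 5 the same range was -1.07 to 0.34, and HBEGF lay below it. PARM1, the next gene after BTC, had FPKM values of 1.05 and 0.432 and a log2 fold change of -1.28. MTHFD2L, the nearest gene on the other side of EREG, was the neighbor with a clear level, at 23.8 and 13.7 and a log2 fold change of -0.80.

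AREG stood at 2 loci of chromosome 4, from 75310853 to 75320726 and from 75480629 to 75490485, both with the same RefSeq name. The second is listed at 0 in both groups. GRCh37 holds 2 near-identical copies of this gene, so the fragments of AREG may have been split or lost between them, and its log2 fold change of -0.58 is uncertain for this reason too. EREG lies between positions 75230860 and 75254477, and its log2 fold change was 0.25. NRG1, which encodes the neuregulin that ERBB3 and ERBB4 bind, had the lowest FPKM of the ligands in tdTom cells. It spans chromosome 8 from 31497268 to 32622558 and had an FPKM of 0.702 in tdTom cells and 0.546 in TTP-tdTom cells, below the level filter. Its neighbors were PURG, also below that filter, and FUT10, with a log2 fold change of -0.17.

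Summed over the 6 ligands, the FPKM was 13.1 in tdTom cells and 7.69 in TTP-tdTom cells, a log2 fold change of -0.77. HBEGF made up 49.8% of this sum in tdTom cells and 36.7% in TTP-tdTom cells. The other ligands together had a log2 fold change of -0.43. TGFA made up 21.2% of the sum in tdTom cells and 26.9% in TTP-tdTom cells. The shares of the sum inside a group do not depend on how the groups are scaled to each other, whereas the difference of the sums does and turns with the rescaling over all loci.

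**Figure D3:**
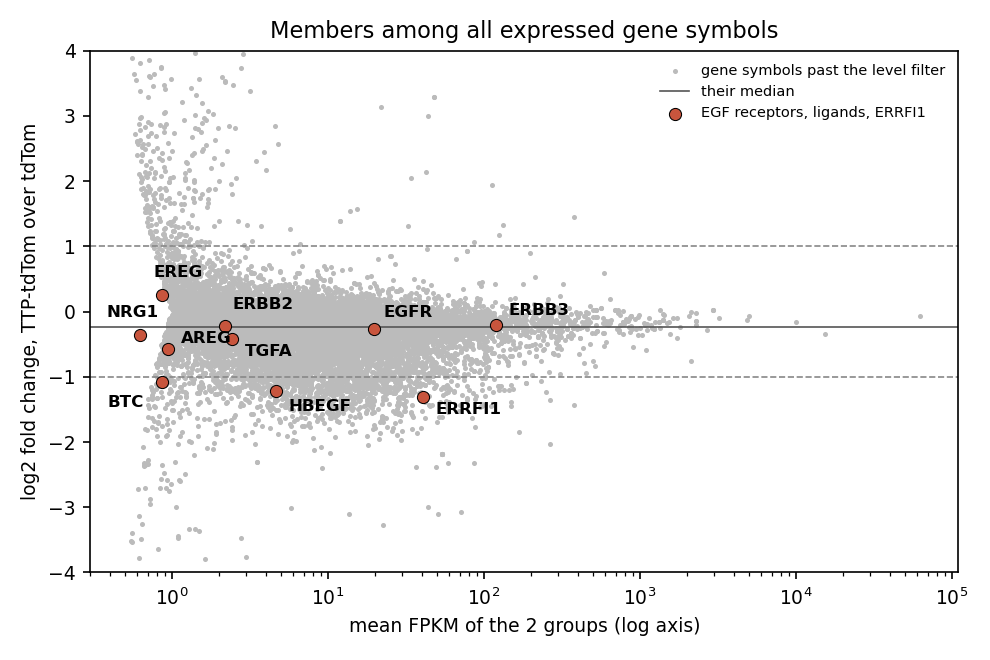
Log2 fold change (TTP-tdTom over tdTom) against the mean FPKM of the groups, on a log axis, for the 13004 gene symbols past the level filter (grey, 34 lie beyond the axis) and the 10 members (red, of which EREG and NRG1 are below that filter). The solid line is the median of -0.23 and the dashed lines mark an absolute value of 1. EGFR, ERBB2 and the row that ERBB3 shares with PA2G4 sit on the median, and ERRFI1 and HBEGF sit below the lower dashed line on the deposited scale, which the rescaling over all loci would shift up by 3.09.

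ERRFI1, the inhibitor, lies on chromosome 1 from 8069506 to 8087011. Its log2 fold change of -1.31 was the lowest of the 10, and 40.3% of the tdTom FPKM was left. Only 3.42% of expressed symbols had a lower log2 fold change. Among the 1850 symbols with a mean FPKM from 20 to 50, as ERRFI1 has, 10.2% were lower by at least 1 and 0.378% higher. Its neighbors PARK7, at -0.083, and SLC45A1, at 0.29, were not lower by this much. Rows without a symbol inside its locus summed to an FPKM of 1.90 in tdTom cells and 1.28 in TTP-tdTom cells, small beside the gene.

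Set against its receptor, ERRFI1 was 2.70 times as abundant as EGFR in tdTom cells and 1.31 times in TTP-tdTom cells, a difference of -1.04 on the log2 scale. HBEGF was 0.305 and 0.159 times as abundant as EGFR, a difference of -0.94. For TGFA the ratios to EGFR were 0.130 and 0.116. The ratio of ERRFI1 to HBEGF was nearly the same in both groups, 8.84 and 8.24, so the inhibitor and the main ligand were lower by a similar proportion. None of these ratios changes with the scaling of the groups.

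Other genes of the pathway were taken from lists set with earlier results of these data known. Of the remaining family members only NRG2, a further neuregulin, passed the level filter, with an FPKM of 2.27 in tdTom cells and 1.94 in TTP-tdTom cells. EGF (0.332 and 0.267), ERBB4 (0.397 and 0.575), NRG3 (0.130 and 0.180) and NRG4 (0.531 and 0.689) were below it. No row of the deposited table carried the symbol EPGN or AREGB.

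All 9 genes of ligand shedding and traffic passed the filter, and 1 was lower by at least 1, against the 8.65% of all symbols. This was ADAM9, a membrane metalloprotease, at 50.9 and 17.2 (log2 fold change -1.56). ADAM17, the main sheddase of TGF-α and amphiregulin, had a log2 fold change of -0.42, and ADAM10, the main sheddase of betacellulin, one of -0.76. NRD1, which encodes nardilysin, an enhancer of HB-EGF shedding, had the highest FPKM of the list, 95.7 and 79.9. RHBDL2, a rhomboid protease of the membrane, was the 1 gene of the list with a log2 fold change above 0, at 0.65. The list's median was -0.27, close to the -0.23 of all symbols.

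Of 19 adaptor and signal genes 16 passed the filter and 4 of these were lower by at least 1, against the 8.65% of all symbols, with a list median of -0.41. PTPN11, the phosphatase SHP2 that acts downstream of the receptors, had an FPKM of 87.3 in tdTom cells and 29.9 in TTP-tdTom cells, a log2 fold change of -1.55. The adaptor NCK1 had a log2 fold change of -1.39, MAP2K1, the kinase MEK1, one of -1.27, and the adaptor CRK one of -1.13. The adaptors GRB2 (-0.33) and SHC1 (-0.097) and the kinase gene MAP2K2 (-0.10) were nearer to the median of all symbols.

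Of 23 genes that brake or sort the receptors 21 passed the filter and 3 were lower by at least 1 (14.3%, against 8.65% of all symbols), with a list median of -0.52. These were SOCS4 (65.9 and 29.1) and SOCS5 (9.50 and 4.55), which target EGFR for degradation, and STAM2 (7.91 and 3.91), an endosomal sorting protein. Centred on the median of expressed symbols, 0 of the 21 passed the threshold, against 4.24% of all symbols. PTPN2, a phosphatase that acts on EGFR, had the highest FPKM of the list, 102.4 and 82.3. CBL, the ubiquitin ligase of EGFR, had a log2 fold change of -0.68, and the related CBLB one of -0.016. RNF41, a ubiquitin ligase of ERBB3, was the 1 of the 21 with a log2 fold change above 0, at 0.21. All counts over these lists are of the deposited scale. With the same FPKM sum over loci with a symbol, the counts for shedding, adaptor and braking genes were 1, 4 and 2, against 7.36% of all symbols. With the same sum over all loci 0 genes of any list were lower, against 0.0306% of all symbols.

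**Figure D4:**
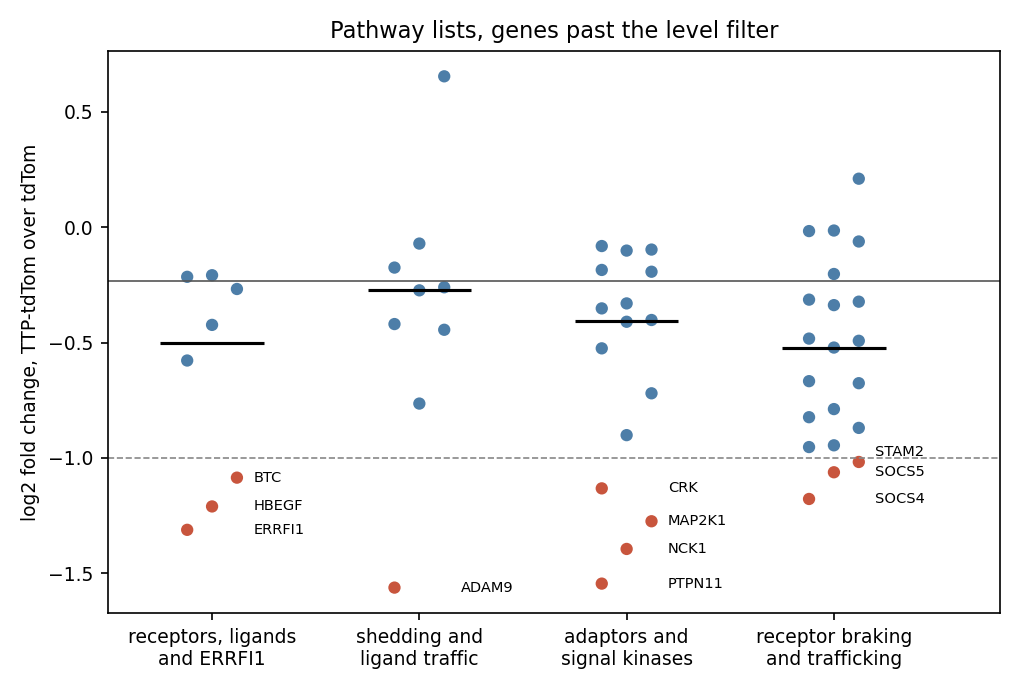
Log2 fold change (TTP-tdTom over tdTom) of each gene past the level filter in the 4 lists, 1 point per gene, with red points for genes lower by at least 1. The short bars are the list medians (-0.50, -0.27, -0.41 and -0.52 from left to right), the solid line is the median of all symbols, -0.23, and the dashed line is the threshold. The median of the receptors, ligands and ERRFI1 holds AREG and BTC, which passed the filter only through tdTom cells, and is -0.39 over all 10 with no filter.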

How the data were processed

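Strand-specific paired-end libraries were aligned by the authors to Hs37D5 (GRCh37 with decoy sequence). The submitters' processing notes name TopHat2 2.0.13 and Cufflinks 2.2.1. The deposited FPKM values, 1 per group and locus, pool the 3 samples of a group, so no depth, replicate error or paired test can be had from them. The deposited table also holds the authors' own fold changes, test statistics, p-values and q-values, which were not used. Log2 fold changes were computed as TTP-tdTom over tdTom with no pseudocount, and starts of loci are counted from 1. The level filter kept symbols whose FPKM reached 1 in either group with neither value at 0. The members, the lists and the rule for named genes (all members, their neighbors, and list genes past the threshold or highest in FPKM) were chosen with earlier results of these data known. A few further list genes were named for their role after their values were seen. An annotated 3′UTR of GENCODE release 29 was found by symbol for 85.0% of expressed symbols. Alternatives covered pseudocounts, locus choice, scaling, threshold and filter. The functions were tested on simulated data. Python 3.11.15, numpy 2.4.6, pandas 2.3.3 and matplotlib 3.10.9 were used. Values of a few list and marker genes are not reported here.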

Additional observations from a re-analysis of the deposited data

How the results depend on the processing

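No paired analysis was possible because the table holds 1 value per group, and for the same reason no replicate could be left out. The number of members lower by the threshold, 3, was 2 with a pseudocount of 0.1 FPKM, 1 with a pseudocount of 1 FPKM (ERRFI1), 1 after centring on the median of expressed symbols (ERRFI1), 1 where the level filter was set at 10 FPKM, and 0 at a threshold of 1.5. The share of all symbols lower at these settings, 8.65% as reported, was 8.14%, 5.24%, 4.24%, 10.8% and 1.95% in that order. The count of lower genes that brake or sort the receptors, 3, was 1 with a pseudocount of 1 FPKM and 1 with the level filter at 10 FPKM. It was 0 at a threshold of 1.5 and 11 at a threshold of 0.5, where 27.4% of all symbols were lower. For the adaptor and signal genes the count of 4 was 1 at a threshold of 1.5 and 7 at 0.5. The shedding count of 1 was 2 at a threshold of 0.5. Centred, HBEGF stood at -0.98 and BTC at -0.85. With a pseudocount of 1 FPKM they stood at -0.98 and -0.48. Rescaling to the same FPKM sum over loci with a symbol added 0.052 to every log2 fold change and left 3 members lower. Rescaling to the same FPKM sum over all loci, most of which carry no symbol, added 3.09. It put ERRFI1 at 1.78, HBEGF at 1.88 and BTC at 2.01, left 0 members lower and made 10 higher, while the median of all symbols became 2.95. Of the 7 other alternatives, a pseudocount cannot change a sign, and the choices of locus changed the value of ERBB3 only. That leaves centring, which adds 0.235, and the same sum over loci with a symbol. Under both, EGFR, AREG, HBEGF, TGFA, BTC, NRG1 and ERRFI1 stayed below 0. EREG was above 0 and could not turn, as both shifts are upward. ERBB2 changed sign when centred, and ERBB3 when centred and in the row of ERBB3 alone. The median over the members past the level filter, -0.50, was -0.46 and -0.29 with the pseudocounts of 0.1 and 1 FPKM and -0.27 centred. It was -0.45 with the same sum over loci with a symbol, 2.70 with the same sum over all loci and -0.39 with no level filter. With the level filter at 10 FPKM, which keeps only EGFR, the joint ERBB3 row and ERRFI1, it was -0.27, the EGFR value. With the row of ERBB3 alone, chosen after seeing the data, ERBB3 fell below the filter, and the median of the others was -0.58. The heptamer stood in the longest 3′UTR of 5 members and in the shortest of 3, TTATTTATT in the longest of 2, and the heptamer in the RefSeq-named 3′UTR of 6.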
